A study of Mus musculus with 6 samples.

Results

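The genes described here encode the nuclear subunits of the mitochondrial respiratory chain and ATP synthase. They are the protein-coding genes of the deposited tables whose symbols begin with Nduf followed by a, b, c, s or v, with Uqcr, with Cox4 to Cox8 or with Atp5, together with Sdha, Sdhb, Sdhc and Sdhd. Assembly factors of the Ndufaf series and Cox8b were left out. This gave 83 of the 25805 listed genes: 38 of complex I, 4 of complex II, 8 of complex III, 16 of complex IV and 17 of complex V. The complex was assigned by the start of the symbol alone, and not by where the protein is known to sit. Ndufa4 and Ndufa4l2 are therefore counted under complex I, though outside its core and accessory groups, and Atp5s (factor B) under complex V. The rule reads gene names and no measured value, though it was set with earlier results of these data known.

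RNA was sequenced from mouse kidney after ischaemia-reperfusion injury (IRI), a model of acute kidney injury in which the renal blood supply is clamped for a time and then released. The study asked how the chemokine receptor CXCR2 acts in this injury. The 2 groups of 3 libraries were labelled WT with IRI and CXCR2 KO with IRI. All 6 libraries were labelled as kidney after the injury, and uninjured tissue was not analysed here. The labels give no strain, sex, age, time after injury or knockout allele. Nor do they state whether the libraries are from different mice, so p-values reflect only the spread among these samples, which may be technical.

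The libraries held 15518083 to 20356601 recovered reads. The receptor's own gene, Cxcr2, did not fall in the labelled knockout, with normalized counts of 15.9, 88.8 and 56.9 in wild type and 98.02, 36.8 and 56.6 in labelled knockout (log2 fold change 0.43, limma adjusted p = 0.841). Every direction below is therefore drawn from the libraries as labelled. Labelled-knockout library 1 stood apart: markers of brown and white fat summed to 60297 normalized counts there against 344 to 3404 in the other 5 libraries, and the median of 10 proximal tubule markers was 1.64 above the wild-type mean on the log2 scale, against 0.63 and 0.05 in labelled-knockout libraries 2 and 3. Neutrophil markers summed to 3562 in that library against 339 to 1149 in the others, and erythrocyte markers to 13289 against 656 to 2771. The 10 proximal tubule markers, which define the bulk of kidney cortex, summed to 209360 to 276111 in the 6 libraries. Kap, an abundant protein of these cells, made up most of that sum in wild type (184700 in library 1) and was at 56848 in labelled-knockout library 1, while 8 of the 10 had a higher mean in the labelled knockout (median log2 fold change 0.70, or 0.29 without that library). The part of these cell types in the results below was not tested.

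The respiratory chain passes electrons from NADH (complex I) and succinate (complex II) through ubiquinone to complex III, through cytochrome c to complex IV, and finally to oxygen. The proton gradient built on the way drives ATP synthase, complex V. Each complex other than complex II joins a few subunits made inside the mitochondrion with many made from nuclear genes, and each holds large catalytic or core subunits surrounded by small accessory ones. Proximal tubule cells reabsorb most of the filtered solutes, are packed with mitochondria and depend on this pathway, which makes them vulnerable when oxygen is cut off.

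The subunit genes were among the abundant messages in every library, and together took 1.55% to 2.25% of all reads, the most in wild-type library 1 and the least in labelled-knockout library 3. To compare genes with each other, the mean normalized count of the 6 libraries was divided by transcript length. In that per-kilobase mean the highest levels belonged to the ATP synthase beta subunit Atp5b (20027), to Cox6a1 (19657), Cox4i1 (16838) and Cox8a (15193) of complex IV, and to the c-ring gene Atp5g3 (13563) and the alpha subunit Atp5a1 (11976) of ATP synthase. The order of the first 2 came from labelled-knockout library 1, where Atp5b had 30200 and Cox6a1 22458 per kilobase. Cox6a1 was the higher in the other 5 libraries, and in the wild-type mean (19494 against 18350). Uqcr10, a small subunit of complex III, reached 10290.3, Ndufa4 8636, and the flavoprotein of complex II, Sdha, 3230.4. The low end held the isoforms known from other tissues or cell types: Cox6b2 (308), Cox7a1 (204), Ndufa4l2 (72.5), Cox6a2 (27.1) and Cox4i2 (21.6). Atp5s (149) lay there too, and is not such an isoform. Ndufb2 was also low (61.5), its count divided by an annotated transcript of 4371 bases for a protein of 105 codons. Cox8c, known from testis, had 2 reads in labelled-knockout library 3 and none in the other 5 libraries, and was the 1 gene that failed the filter of a mean normalized count of at least 1. A count of 0 allows up to 3 reads, so its level was at or under the floor in both groups.

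**Figure D1:**
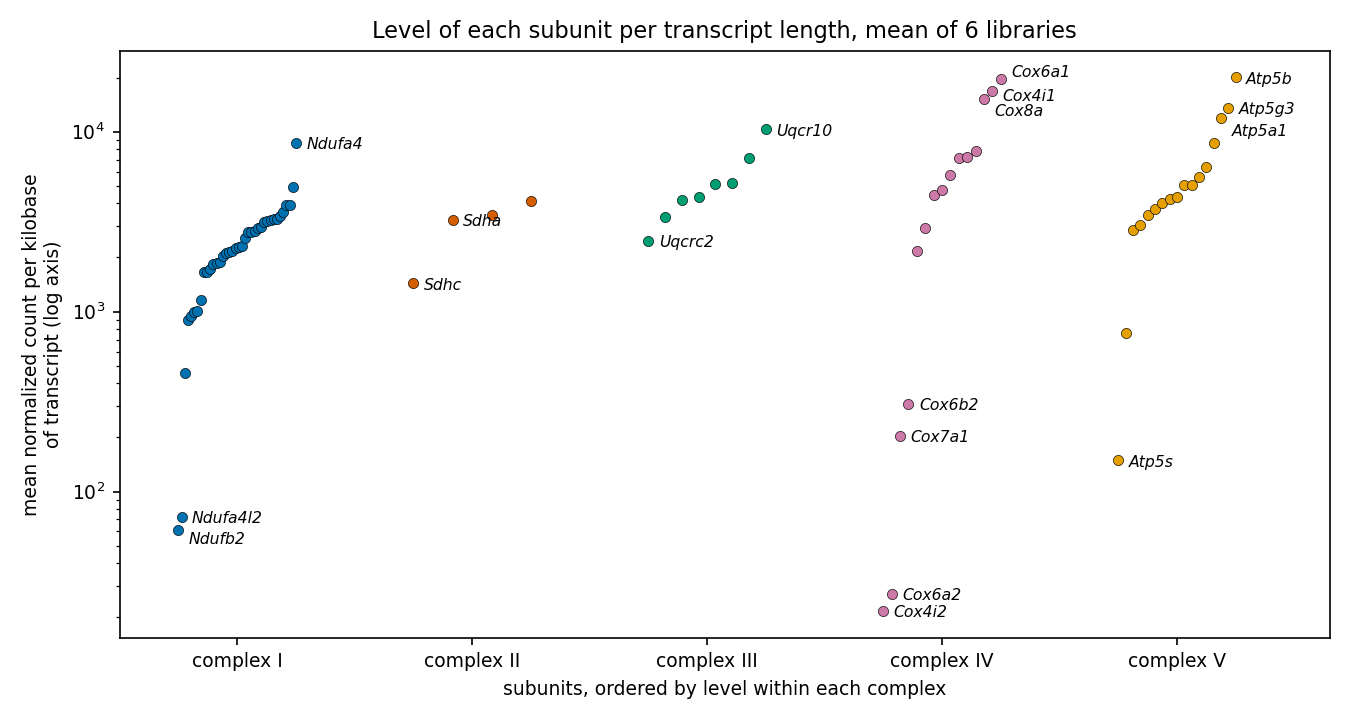
Mean normalized count per kilobase of transcript (log axis) for the 82 subunit genes that passed the filter, grouped by complex and ordered by level within each. Atp5b, Cox6a1 and Cox4i1 lead in this mean of 6 libraries, and Cox6a2 and Cox4i2 lie lowest.

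Between the groups, no subunit gene passed limma's threshold. Of the 82 genes tested, 0 had an adjusted p under 0.05 with limma, against 0.0046% of all 21721 genes tested (1 gene). Without adjustment, 11 were lower and 0 higher at a limma p under 0.05, or 13.4% lower, where 6.14% of all genes were lower and 3.94% higher. The quasi-likelihood test of edgeR called 0 (0.00628% of 15915 genes), with 11 lower at an unadjusted p under 0.05 (13.4%, against 6.28% of all genes). DESeq2 called 1, Ndufa4l2, lower in the labelled knockout, where 1.3% of 16222 genes were called lower. The median standard error of a subunit's log2 fold change was 0.19, and the smallest limma adjusted p was 0.377.

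As a description, 58 of the 82 genes (70.7%) had a lower mean in the labelled knockout, against 50.1% of all genes, and the median log2 fold change was -0.20 where that of all genes was -0.001. In 13 genes (15.9%) all 3 labelled-knockout values lay below all 3 wild-type values, against 9.43% of all genes. In 0 genes did they all lie above, against 8.27%. Scaling each library to its total shifted the median of all genes by -0.09 and moved the subunits to -0.30. In whole tissue, fewer cells of a type and less RNA per cell cannot be told apart. The medians differed between complexes: -0.22 for complex I, 0.18 for complex II, -0.28 for complex III, -0.17 for complex IV and -0.15 for complex V. Each depended on single libraries by over 1.5 times. Without labelled-knockout library 1 the median was 0.01 for complex II, -0.42 for complex IV and -0.24 for complex V. Leaving out labelled-knockout library 2 gave -0.26 for complex IV, and leaving out library 3 gave -0.19 for complex III and -0.08 for complex IV. Among the wild-type libraries, complex I had -0.11 without library 1 and -0.33 without library 3, complex II had 0.06 without library 2, and complex IV had -0.42 without library 3.

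**Figure D2:**
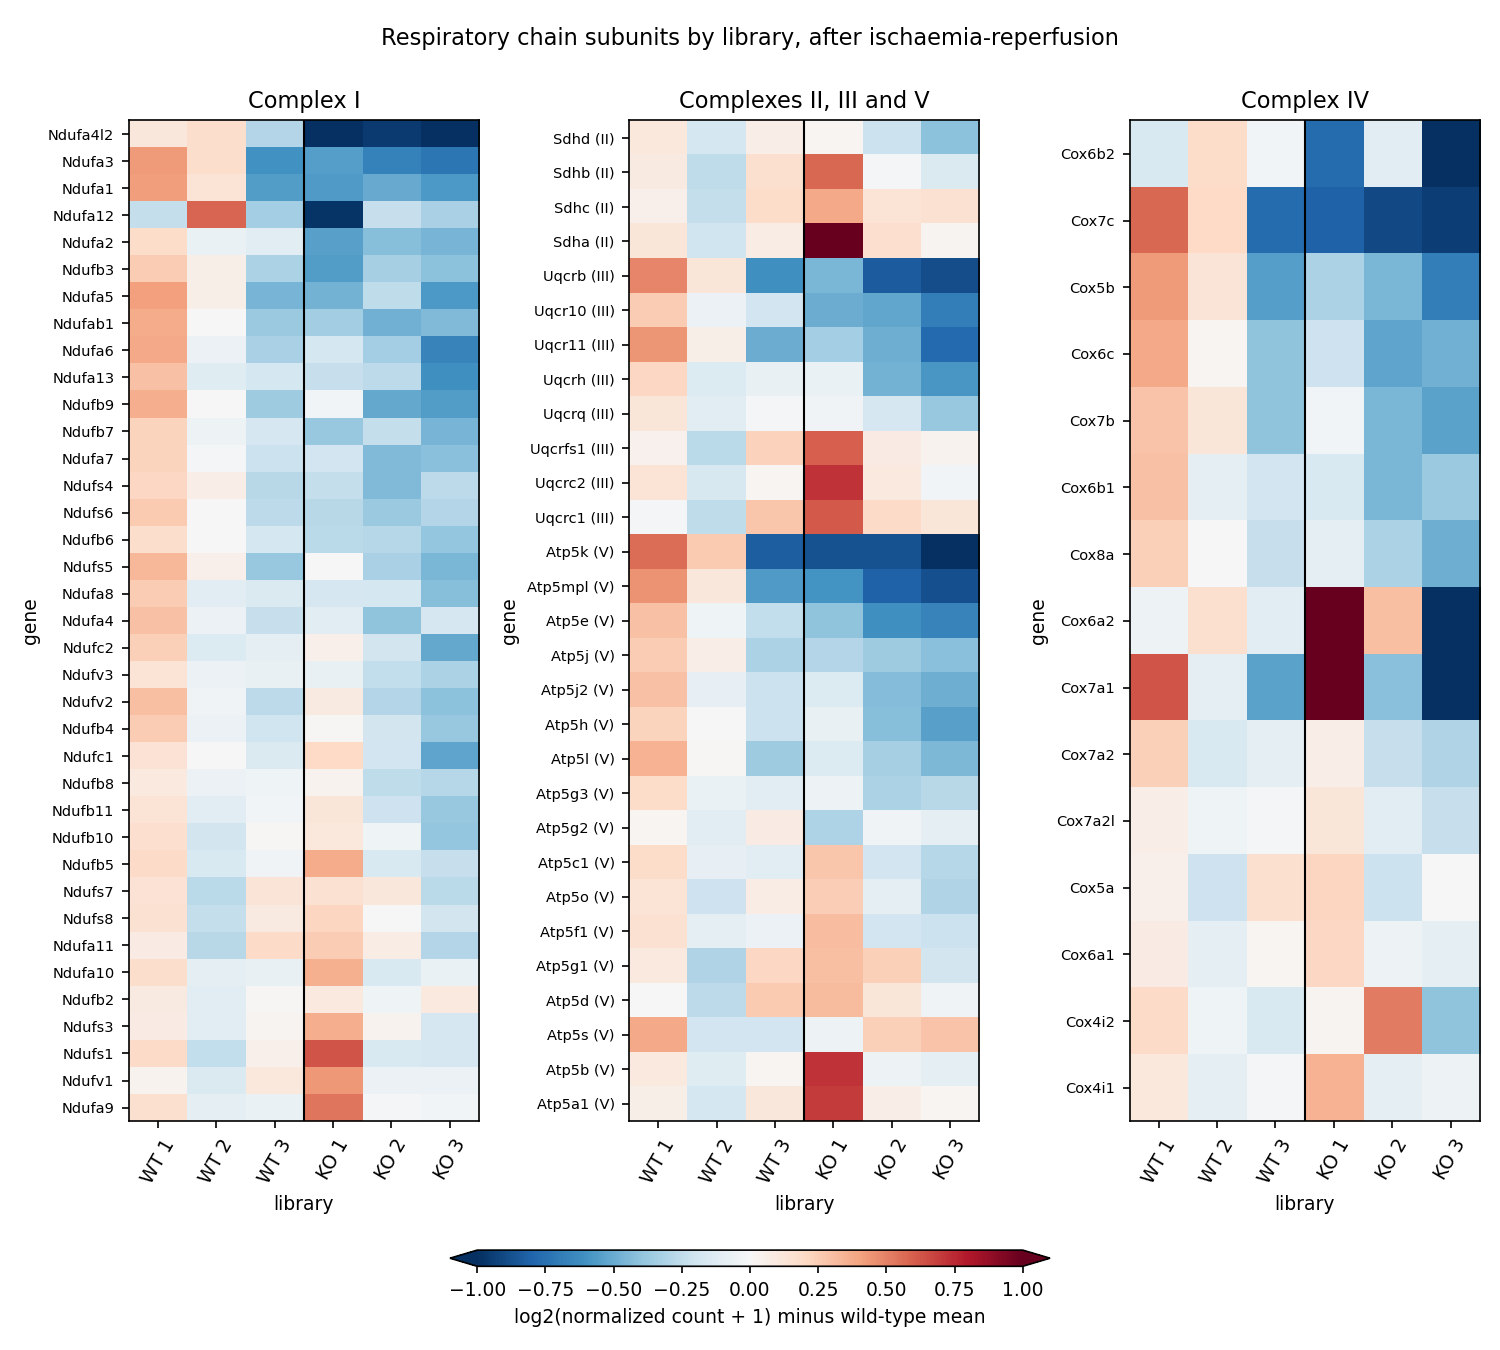
log2(normalized count + 1) of 81 of the 82 tested subunit genes in each library minus the mean of the 3 wild-type libraries, with genes ordered by fold change within each complex and colours ending at -1 and 1. Wild-type library 1 is high and labelled-knockout library 3 low for most genes, and large subunits such as Sdha and Atp5b are high in labelled-knockout library 1.

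The libraries did not split cleanly by label. Wild-type library 1 held the highest value of 46 genes and labelled-knockout library 1 that of 30. Labelled-knockout library 3 held the lowest value of 49 genes, and wild-type library 2 that of 19. Markers of the thick limb and distal tubule were lowest in labelled-knockout library 3 too, with a sum of 22812 against 41327 to 87587 in the other 5 and a median 1.42 under the wild-type mean on the log2 scale. Their part in the subunit values was not tested. The median deviation from the wild-type mean was 0.19, -0.08 and -0.12 for wild type, in the order of the replicate numbers, and -0.02, -0.22 and -0.38 for the labelled knockout, so the groups overlapped. Without labelled-knockout library 1 the median log2 fold change was -0.30. Leaving out wild-type library 1 gave -0.12, and leaving out labelled-knockout library 3 gave -0.11, so the size of the median moved by over 1.5 times with each of the latter 2.

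Small and large subunits of a complex had different medians. In complex I the 7 core subunits, which carry out the electron transfer, had a median log2 fold change of 0.08, while the 29 accessory subunits had -0.31, with 25 of the 29 lower. In complex III the core proteins and the Rieske protein had 0.26 and the 5 small subunits -0.54. In complex V the subunits of the F1 head had 0.13 and the 4 small membrane subunits -0.56. The F1 head is counted here with the large subunits, though it includes Atp5e, of 52 codons, which itself had -0.56. None of the genes in these groups passed limma's threshold. The positive medians of the large subunits rested on labelled-knockout library 1: without it the core of complex I had -0.09, the core and Rieske proteins of complex III 0.06 and the F1 head -0.07. The small subunits then had -0.35, -0.60 and -0.65, still the lower in each complex. Without wild-type library 2 the core of complex I had -0.02 and the F1 head -0.001, and without wild-type library 3 the F1 head had 0.21. Without labelled-knockout library 3 the 3 large groups had 0.19, 0.40 and 0.22, and without wild-type library 1 the core of complex I had 0.12. The small subunits lay nearest to 0 without wild-type library 1, at -0.18, -0.32 and -0.37.

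The difference between groups also varied with transcript length. Among the 80 subunit genes whose mean normalized count reached 50, the median log2 fold change was -0.35 for transcripts of up to 700 bases (30 genes), -0.26 above that and up to 1000 bases (17 genes), -0.04 above that and up to 1500 bases (14 genes) and 0.10 for longer ones (19 genes). Protein-coding genes outside the respiratory chain, with the same minimum level, gave -0.40 (188 genes), -0.25 (430), -0.12 (1087) and 0.05 (10368) in the same classes. The short subunit messages thus had about the median of other short messages. The signs of the 2 longer subunit classes turned on single libraries. Without labelled-knockout library 1 the subunits had -0.44, -0.30, -0.18 and -0.07 from the shortest class to the longest, and other genes -0.30, -0.16, -0.04 and 0.03. Without wild-type library 1 the subunits had -0.23, -0.14, 0.06 and 0.17. In the 2 longer classes they had -0.10 and -0.001 without wild-type library 2 and 0.07 and 0.19 without labelled-knockout library 3, and the class above 1000 and up to 1500 bases had 0.005 without labelled-knockout library 2. Across the 80 subunit genes the Spearman correlation of fold change with length was 0.64, and across 12153 protein-coding genes 0.19. Without labelled-knockout library 1 these were 0.67 and 0.07, so the size of the relation over all genes depended on that library. The 2 correlations cover unlike lengths, as 10368 of the other genes but only 19 of the 80 subunit genes were over 1500 bases. Their sizes are therefore not directly comparable. These are descriptions across genes, which share the same 6 libraries and are not independent replicates. Of the 80, 53 lay within the interquartile range of other genes of their length class, 14 below it and 13 above it.

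**Figure D3:**
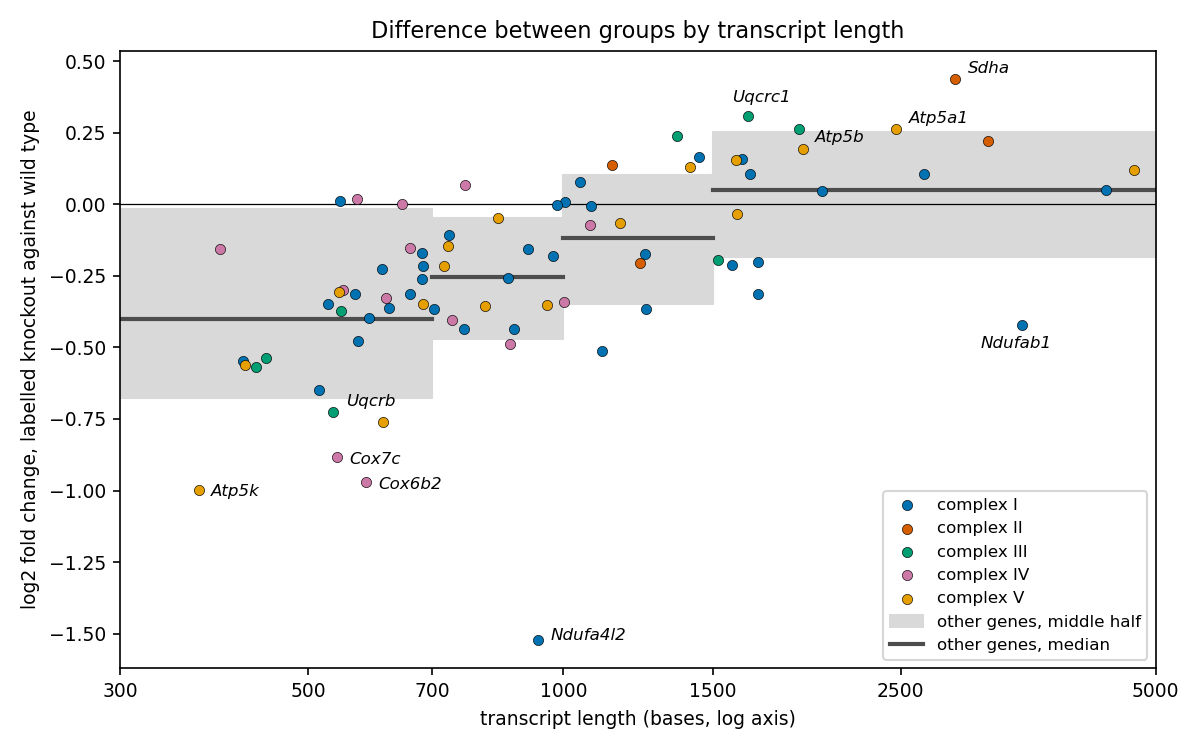
Difference between the groups as log2 fold change, positive where the labelled knockout is higher (y axis), by transcript length in bases (log x axis) for 80 subunit genes, coloured by complex, with the median (line) and interquartile range (grey) of other protein-coding genes in each of 4 length classes. The other genes' medians run from -0.40 for the shortest class to 0.05 for the longest, and most subunits lie in the grey band, with Ndufa4l2 far below.

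As an alternative added after the data had been seen, each library's trend with transcript length was removed before the limma fit. The median of the subunits became 0.06, where that of all genes was 0.02, and 33 of 82 subunit genes had a lower mean. At an unadjusted p under 0.05, 2 genes (2.44%) were then lower, against 5.5% of all genes, and 0 passed the adjusted threshold (0.00457% of all genes). The complexes had medians of 0.03, 0.23, -0.01, 0.11 and 0.09 in order from I to V. Large and small subunits still differed: the core of complex I had 0.20 and its accessory subunits -0.01. In complex III the core and Rieske proteins had 0.34 and the small subunits -0.08. In complex V the F1 head had 0.21 and the small membrane subunits -0.26. The 3 large groups were again highest in labelled-knockout library 1, with median deviations from the wild-type mean of 0.59, 0.83 and 0.59. Library by library, the subunits' median after removal was 0.11, -0.07 and -0.03 in wild type and 0.44, -0.08 and -0.20 in the labelled knockout. Labelled-knockout library 1 was then the highest and library 3 of the same group the lowest of the 6.

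The short messages differed between libraries of 1 group as well. For subunits of up to 700 bases the median deviation from the wild-type mean was 0.25, -0.03 and -0.22 for the wild type in replicate order and -0.19, -0.41 and -0.50 in the labelled knockout. Other genes of that length gave 0.15, 0.03 and -0.16, then -0.57, -0.33 and -0.27. Wild-type library 3 was thus below labelled-knockout library 1 for short subunits, but above it for other short genes. For subunits over 1500 bases the deviation was 0.35 in labelled-knockout library 1 and -0.06 and -0.09 in libraries 2 and 3, where other long genes gave 0.08, 0.02 and 0.04.

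**Figure D4:**
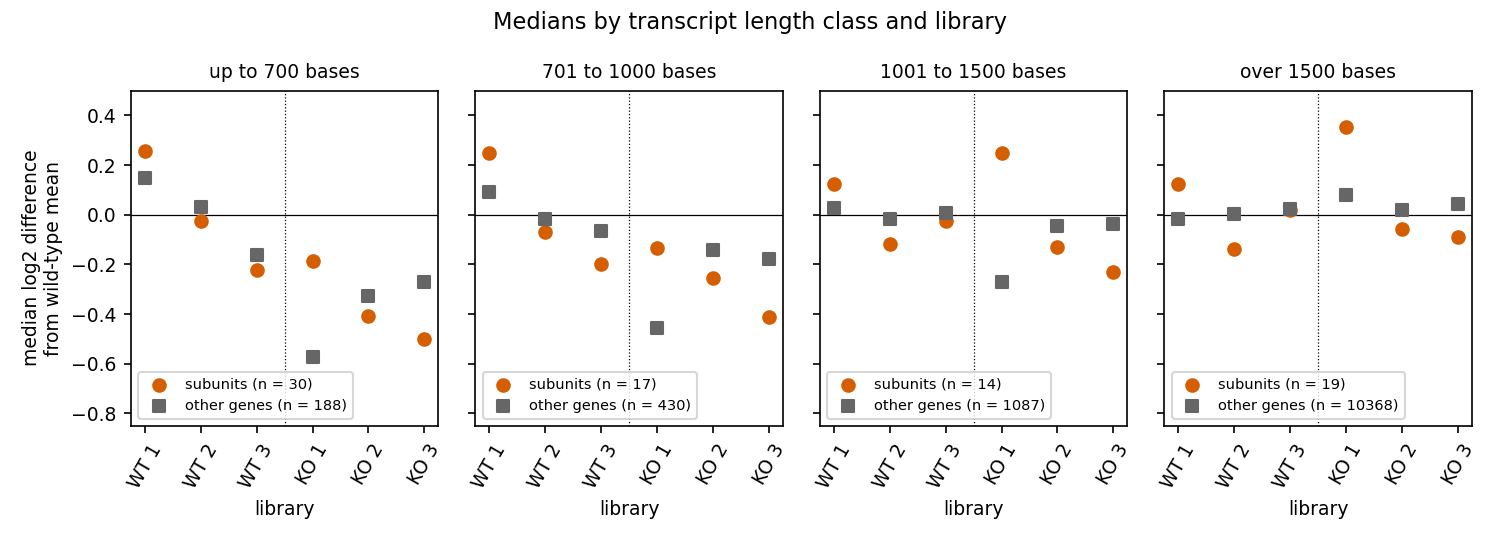
Median log2 difference from the wild-type mean in each library (y axis) for subunit genes (circles) and other protein-coding genes (squares), in 4 panels by transcript length. In the shortest class the subunits run from 0.25 in wild-type library 1 to -0.50 in labelled-knockout library 3, and in the longest class labelled-knockout library 1 stands alone at 0.35.

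In complex I, the core subunits were highest in labelled-knockout library 1 in 6 of 7 cases. Ndufv1, which binds NADH and the flavin, had normalized counts of 4807, 4252 and 5039.8 in wild type and 6324, 4509 and 4494 in the labelled knockout. Ndufs1, the largest iron-sulphur subunit, had 2902, 2140.0 and 2637, then 3928, 2287 and 2263. In both of these genes labelled-knockout library 1 was above all others and libraries 2 and 3 lay within or near the wild-type range. Their log2 fold changes of 0.10 and 0.10 became -0.06 and -0.16 without that library.

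Among the accessory subunits of complex I, Ndufa2 had the smallest limma p. It had 3710.4, 3109.7 and 3009 normalized counts in wild type and 2243, 2426 and 2367 in the labelled knockout, with no overlap. The means were 3276 ± 379 and 2345 ± 93.4 (SD, n = 3 each), and the log2 difference of -0.48 ± 0.15 (SE) did not pass (limma adjusted p = 0.399). With the length trend removed it was -0.08. Ndufb3 had 1942, 1688 and 1307, then 1100.5, 1289.6 and 1219.5, also without overlap, and a log2 fold change of -0.44. Ndufa3 had 2697, 2262 and 1317, then 1367, 1255 and 1215, so that wild-type library 3 sat among the labelled-knockout values. Ndufa1, picked out after its values were seen as the remaining complex I gene with an unadjusted p under 0.05, had the same arrangement.

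Complex II, which is also the succinate dehydrogenase of the tricarboxylic acid cycle, had 3 of 4 genes with a higher mean, while the median of each other complex was below 0. Its median of 0.18 was 0.01 without labelled-knockout library 1. Sdha, its flavoprotein (chr13:74322254-74350280 on mm10, minus strand), had normalized counts of 8359, 6690.3 and 8067 in wild type and 16659, 8632 and 7802 in the labelled knockout. The means were 7705 ± 891 and 11031 ± 4892 (SD, n = 3 each), and the log2 fold change of 0.44 ± 0.28 (SE) did not pass (limma adjusted p = 0.617). It was 0.10 without labelled-knockout library 1. The iron-sulphur subunit Sdhb had 4688, 3698 and 4932, then 6548, 4357 and 3976, and its log2 fold change of 0.14 became -0.08 without that library. The membrane anchors went separate ways: Sdhc had 4339.8, 3556 and 4759, then 5445, 4599 and 4644, while Sdhd had 4847, 3990.5 and 4718, then 4552, 3873 and 3381. Both anchors overlapped between groups (log2 fold changes 0.22 and -0.20).

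In complex III the core protein Uqcrc1 had 7427, 6328 and 9147 in wild type and 11525, 8629 and 8186 in the labelled knockout. Uqcrc2 had 4626, 3774 and 4269.6, then 6946, 4502 and 4128. The Rieske iron-sulphur protein Uqcrfs1 had 5469, 4408 and 6242, then 8068, 5615 and 5438. All 3 were highest in labelled-knockout library 1 and overlapped between groups, with log2 fold changes of 0.31, 0.26 and 0.24. The small subunits were arranged differently. Uqcr10 (chr11:4701973-4704342) had 6307, 5102 and 4635 in wild type and 3765, 3702 and 3286 in the labelled knockout, with no overlap, and its means were 5348 ± 863 and 3584 ± 260.2 (SD, n = 3 each). On the log2 scale it differed by -0.57 ± 0.17 (SE, limma adjusted p = 0.391), or by -0.08 with the length trend removed. Uqcrb had 3758, 2914 and 1744, then 1949, 1504 and 1443, where wild-type library 3 lay below labelled-knockout library 1 (log2 fold change -0.72). Uqcr11 and the hinge protein Uqcrh had log2 fold changes of -0.54 and -0.37 and overlapped as well.

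Complex IV showed both kinds of gene among its general subunits. Cox7c (chr13:86044816-86046904), a single-pass membrane subunit of 63 codons, had normalized counts of 7117, 5490.3 and 2804 in wild type and 2724, 2565 and 2494 in the labelled knockout. Wild-type library 3 sat next to the labelled knockout, though the groups did not overlap. The means were 5137 ± 2178 and 2594 ± 118 (SD, n = 3 each), and the log2 fold change of -0.88 ± 0.31 (SE) did not pass (limma adjusted p = 0.431). Leaving out wild-type library 1 gave -0.60, and removing the length trend gave -0.47. Before that removal it was -0.48 relative to the median of other genes of its length class. Cox7c shares long stretches with processed pseudogenes, so its count is uncertain.

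Cox5b had 5894, 4801 and 3003, then 3532, 3199.8 and 2722, and Cox6c had 7820.3, 6120.3 and 4569.9, then 5215, 4182 and 4315. In both, wild-type library 3 lay inside the labelled-knockout range. Cox4i1, the general form of the largest nuclear subunit, had 13428, 11724 and 12417 in wild type and 15926, 11752 and 12041 in the labelled knockout. Its log2 fold change of 0.07 became -0.07 without labelled-knockout library 1 and -0.03 with scaling to library totals. Cox5a, which lies against the matrix side, had 3134, 2623 and 3387, then 3524, 2615 and 3025. Its groups had nearly the same mean, with a log2 fold change of 0.0005 and a 95% interval from -0.40 to 0.40. Cox6b1, Cox7a2, Cox7b and Cox8a had log2 fold changes from -0.34 to -0.15 and overlapped between groups. Cox7a2l, which helps join complexes III and IV, had -0.07.

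In ATP synthase, Atp5b, the catalytic beta subunit (chr10:128083273-128090391), had 37613, 32204 and 35658 in wild type and 57863, 33894 and 32995 in the labelled knockout. Its means were 35158 ± 2739 and 41584 ± 14105 (SD, n = 3 each), and the log2 difference of 0.19 ± 0.24 (SE, limma adjusted p = 0.81) became -0.07 without labelled-knockout library 1. The alpha subunit Atp5a1 had 27617, 23459 and 28748, then 43094, 27778 and 26866, again with a single high library. Its log2 fold change of 0.26 was 0.04 without it.

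The small subunits of ATP synthase showed the largest differences of the complex. Atp5k, subunit e at the dimer interface (chr5:108433244-108434448), had 1974, 1607 and 754 in wild type and 731, 729 and 563 in the labelled knockout. Its means were 1445 ± 626 and 674 ± 96.4 (SD, n = 3 each), and the log2 fold change of -0.998 ± 0.34 (SE) did not pass (limma adjusted p = 0.428). Wild-type library 3 was close to the labelled knockout here too, and without wild-type library 1 the value was -0.72. Atp5mpl, a small membrane proteolipid, had 3090.2, 2446 and 1524, then 1489, 1292 and 1228. Atp5e, the epsilon subunit of the F1 head, had 5253, 4176 and 3615, then 3256, 2814 and 2697. These 3 genes did not overlap between groups, and with the length trend removed their log2 fold changes were -0.45, -0.39 and -0.06. Atp5j, of the stalk, had a log2 fold change of -0.36 with overlapping values.

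**Figure D5:**
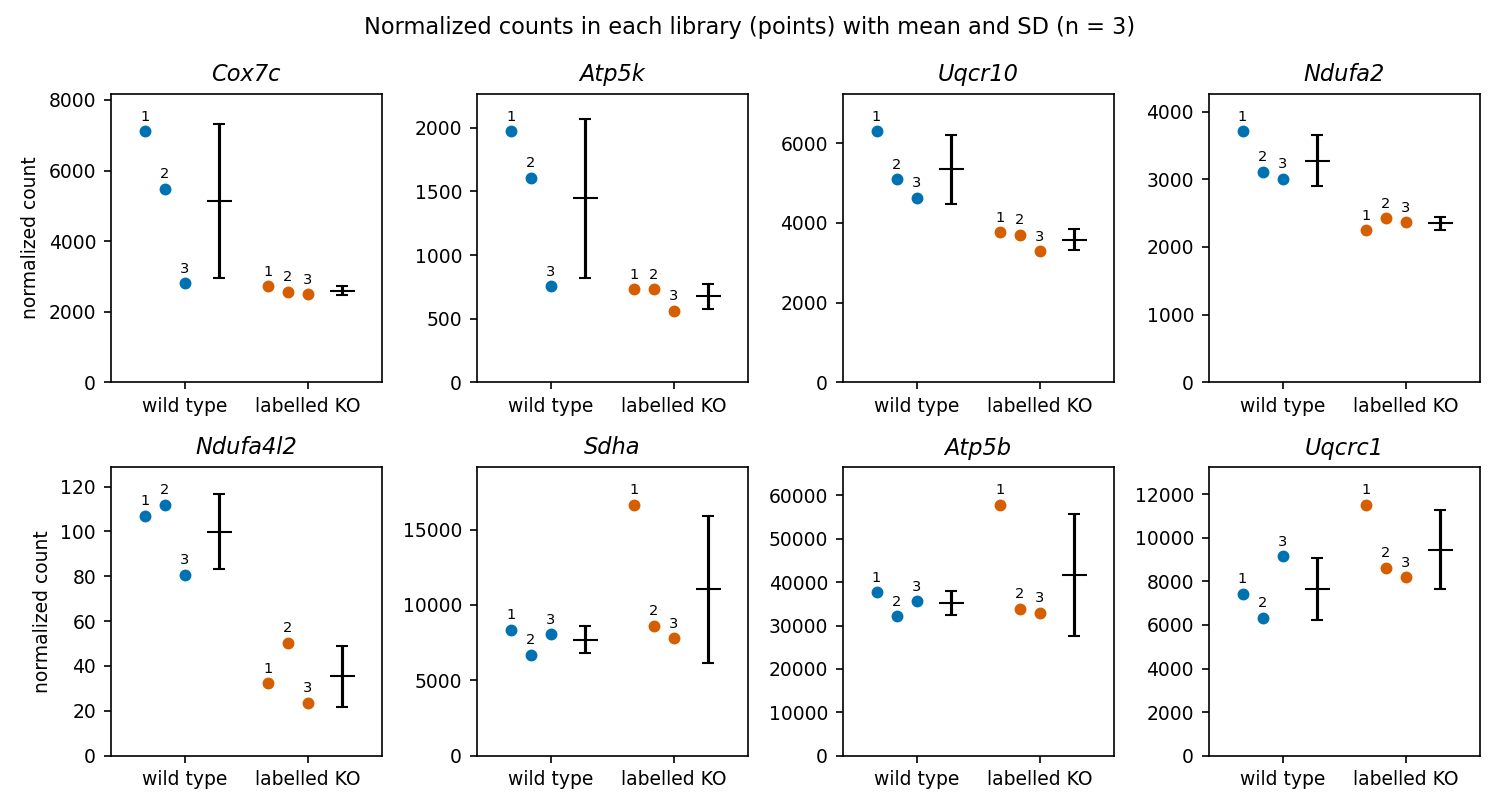
Normalized counts of 8 subunit genes in each library (points, numbered by replicate) with group mean and SD (n = 3), each axis starting at 0. Uqcr10, Ndufa2 and Ndufa4l2 separate the groups clearly, Cox7c and Atp5k have wild-type library 3 beside the labelled knockout, and Sdha, Atp5b and Uqcrc1 have a high labelled-knockout library 1.

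Ndufa4l2, a hypoxia-inducible relative of Ndufa4 (chr10:127514967-127517154, plus strand), was the subunit gene with the smallest limma p. The 3 wild-type libraries held 107, 112 and 80.8 normalized counts and the labelled knockout 32.3, 50.3 and 23.7, from 23 to 128 reads per library. The groups did not overlap, and the means were 99.9 ± 16.8 and 35.4 ± 13.6 (SD, n = 3 each), 2.82-fold apart. The log2 fold change was -1.52 ± 0.38 (SE, 95% interval -2.38 to -0.66). It did not pass limma (adjusted p = 0.377) or edgeR (adjusted p = 0.359) and passed DESeq2 (adjusted p = 0.0208). Leaving out any 1 library gave -1.80 to -1.27, and removing the length trend gave -1.30. Before that removal it was -1.27 relative to the median of other genes of its length, the furthest below of the 80.

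Its common relative Ndufa4 had 6891, 5423 and 4793 in wild type and 5216, 4263 and 5024 in the labelled knockout, with overlap. The log2 ratio of Ndufa4l2 to Ndufa4 was -5.996, -5.59 and -5.87 in wild type and -7.29, -6.38 and -7.67 in the labelled knockout. All 3 labelled-knockout ratios were lower, by 1.29 on average (exact two-sided permutation p = 0.1, the smallest 3 against 3 can give, and 0.4 adjusted over 4 isoform pairs). Ndufa4l2 is known from pericytes and smooth muscle of vessels. Of 7 markers of those cells, 6 had a lower mean in the labelled knockout and 0 passed limma. At an unadjusted limma p under 0.05, 4 were lower, where 6.14% of all genes were. DESeq2 called 3 of the 7 lower, where 1.3% of all genes were: Pdgfrb (adjusted p = 0.00299), Tagln (0.00355) and Acta2 (0.000671). Of the markers not called, Notch3 and Myh11 had log2 fold changes of -0.89 and -0.72, Rgs5 -0.20 and Cspg4 0.07. The 7 markers had a median log2 fold change of -0.89, with summed counts of 6065 to 14276 in wild type against 2420 to 4711 in the labelled knockout. None was listed at 0 in all libraries. Their part in the Ndufa4l2 result was not tested.

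The other 3 isoform pairs did not separate the groups. Cox7a1, the heart, skeletal muscle and brown fat form of its subunit, had 111, 66.6 and 48.9 in wild type and 174, 53.2 and 27.8 in the labelled knockout. Cox6a2, a muscle form, had 14.2, 16.7 and 13.7, then 45.7, 18.4 and 2.06. Both were highest in labelled-knockout library 1 and lowest in library 3 of that group. The fat markers followed the same order, with sums of 60297, 3093 and 344 in labelled-knockout libraries 1 to 3, and Ucp1, the uncoupling protein of brown fat, was at 7234 in library 1 against at most 48.4 in the other 5. Striated muscle markers stayed low, at sums of 27.8 to 46.0, with 5 of 9 in the tables. The part of fat or muscle RNA in these 2 genes was not tested.

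The log2 ratios of Cox7a1 to Cox7a2, Cox6a2 to Cox6a1 and Cox4i2 to Cox4i1 differed by -0.004, -0.19 and -0.02 (exact two-sided permutation p = 1 for each, and 1 adjusted over the 4 pairs). Cox4i2, the form of lung and smooth muscle, had 17.6, 14.8 and 13.7, then 15.6, 22.3 and 11.3. Cox6b2, best known from testis, had 204, 257 and 222 in wild type and 133, 210.1 and 54.5 in the labelled knockout. Its log2 fold change of -0.97 rested in part on labelled-knockout library 3, and was -0.44 without it.

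Many subunit promoters are known to hold sites for the activators NRF1 and GABP, the latter an ETS factor, and for YY1. Promoters of subunit genes of any transcript length were read from RefSeq windows of 250 bases before to 50 after the start on GRCm38.p6. By symbol, 65 of the 83 genes matched, with 70 windows. The stretches below, each upstream of the start and 60 bases long, show in capitals an ETS motif for 2 genes and an NRF1 motif for 2. The windows of the 2 NRF1 genes, Atp5h and Cox6a1, also hold an ETS motif. Only genes with 1 window and an upstream motif clear of any annotated exon were eligible, and the choice among them was by log2 fold change. The printed ETS genes are the 2 lowest of those, and the printed NRF1 genes the lowest and the highest. Their positions, all on the minus strand, are chr2:174464171-174464230 for Atp5e, chr10:80406855-80406914 for Uqcr11, chr11:115420026-115420085 for Atp5h and chr5:115349041-115349100 for Cox6a1.
Atp5e: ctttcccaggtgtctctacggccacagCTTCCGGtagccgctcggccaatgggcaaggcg
Uqcr11: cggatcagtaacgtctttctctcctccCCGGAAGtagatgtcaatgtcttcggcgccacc
Atp5h: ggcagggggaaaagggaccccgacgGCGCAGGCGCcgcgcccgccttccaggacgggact
Cox6a1: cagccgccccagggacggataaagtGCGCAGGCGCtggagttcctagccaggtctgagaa

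The motifs were searched on both strands, and none is contained in another. The NRF1 motif, GCGCA and GCGC with any 1 base between them, was in 25.7% of the subunit windows and 4.60% of all 32851 windows. CCGGAAG, for ETS factors, was in 22.9% and 8.86%, and AAGATGGC, for YY1, in 12.9% and 2.75%. At least 1 of the 3 was in 52.9% and 14.7%. The subunit windows were richer in G and C, with a median of 57.5% against 52.7%. Among all windows at or above the lower quartile of the subunits' G and C content (54.3%), the shares were 9.08%, 15.0% and 3.65%. A match is a description of letters and not a site in use.

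The difference between groups was similar with and without an NRF1 motif. The median log2 fold change was -0.20 in the 17 matched genes with an NRF1 motif and -0.22 in the 48 without. It was -0.32 in the 16 with an ETS motif and -0.18 in the 49 without, and -0.31 in the 9 with a YY1 motif and -0.21 in the 56 without. Most of the 16 genes with an ETS motif had transcripts of up to 700 bases, against 30 of 80 subunit genes. That length class had a median of -0.35. Length was not matched in these comparisons, so they do not separate motif from length. The genes printed above were chosen by their log2 fold changes, so they do not show how motif and difference relate. Atp5e, Uqcr11 and Atp5h had -0.56, -0.54 and -0.35, while Cox6a1, with the same NRF1 letters as Atp5h, had 0.02. Cox6a1 had normalized counts of 11736, 10366 and 11290.0 in wild type and 12823, 10711 and 10417 in the labelled knockout.

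Other genes of the pathway were described in the same way. None of the 5 lists below held a gene past limma's threshold, and the share of all genes that passed was 0.0046%. DESeq2 called 3 of their 108 genes, where 1.95% of all genes were called: mt-Nd3 (adjusted p = 8.71e-13) and the assembly factor Pet100 (0.0498) lower, and mt-Atp6 (0.0292) higher. Of 13 mitochondrially encoded subunits, 10 had a higher mean in the labelled knockout, with a median log2 fold change of 0.35. Lowest against wild type was mt-Nd3, at 553, 657 and 779 in wild type and 179, 166 and 152 in the labelled knockout (log2 fold change -1.98, limma adjusted p = 0.0534), while mt-Atp6 had a log2 fold change of 1.56. Both had low counts for this group: wild-type library 1 had 553 for mt-Nd3 and 1551 for mt-Atp6, against 307035 for mt-Co1. Whether near copies elsewhere in the genome took reads of these genes was not tested. All 13 genes of the tricarboxylic acid cycle had a higher mean, with a median of 0.20 that was -0.005 without labelled-knockout library 1, 0.31 without library 3 of that group, and 0.32 and 0.10 without wild-type libraries 1 and 2. Idh3g, of isocitrate dehydrogenase, had 3318, 2769 and 3504, then 6227, 3580.3 and 3598, and Ogdh, of oxoglutarate dehydrogenase, had a log2 fold change of 0.45.

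Of 49 assembly factors tested, 30 had a lower mean, with a median log2 fold change of -0.13. Coa6, a copper-handling factor of complex IV, had 741, 748 and 746 in wild type and 409.9, 519 and 521 in the labelled knockout, without overlap, and Uqcc2, of complex III, had 1092, 1079 and 812, then 458, 733 and 643. The limma adjusted p-values were 0.383 and 0.391. Among 18 genes for cytochrome c, cytochrome c1, ubiquinone synthesis and electron transfer flavoproteins, 11 had a higher mean (median 0.11). Cytochrome c1 (Cyc1, log2 fold change 0.17) is a subunit of complex III that the symbol rule does not take. Cycs, cytochrome c itself, had 6355, 6100.0 and 4468, then 3744, 3745 and 3715 (log2 fold change -0.58, limma adjusted p = 0.391), and Coq7, of ubiquinone synthesis, had -0.39. Cycs has an annotated transcript of 3123 bases and is not among the short messages by that length. The length of the form expressed in these kidneys was not measured.

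Of 15 regulators of respiratory genes, 11 had a higher mean, with a median log2 fold change of 0.17. Pprc1, a coactivator related to PGC-1alpha, had 745, 721 and 768 in wild type and 1515, 947 and 990.0 in the labelled knockout, with no overlap (log2 fold change 0.59, limma adjusted p = 0.425). Polrmt, the mitochondrial RNA polymerase, had 0.53. The median transcript length of this list was 3901 bases, against 849.5 for the tested subunits. Without labelled-knockout library 1 the medians were 0.08 for the regulators, 0.02 for the electron carriers, -0.06 for the assembly factors and 0.21 for the mitochondrially encoded subunits. Leaving out labelled-knockout library 2 gave 0.18 for the electron carriers, and leaving out library 3 gave 0.32 for the regulators. Without wild-type library 1 the assembly factors had -0.06 and the electron carriers 0.07, and without wild-type library 2 the electron carriers had 0.03.

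Counts of several subunits carry a further limit. Of the 83 genes, 37 share at least 100 bases at 95% identity or more with another annotated gene, and for 20 of them a pseudogene copy is listed in the tables. A match need not be a copy of the gene, and some cover only a stretch shared with an unrelated or neighbouring gene. How reads with several matches were counted is not known, so reads from the shared stretches may be split between the matching genes.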

How the data were processed

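RNA-seq values of 6 kidney libraries, 3 per group, were grouped by genotype and title. The deposited signal is a normalized count per gene: 100% of the authors' values were whole multiples of 1 step per library within 0.001 reads, so reads were recovered (size factors 0.879 to 1.196), 15518083 to 20356601 per library. The build was mm10 per the submitters' processing notes. The sources used here do not give the aligner, counting program, use of strand or kit. Gene symbols and coordinates come from the tables. Transcript lengths come from GENCODE M21 (83 of 83 subunit genes found), taking 1 principal transcript per gene, which is unusually long for a few short proteins such as Ndufb2 (4371 bases).

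The main test was limma 3.58.1 (trend, robust) on log2(normalized count + 1) for genes with a mean of at least 1, Benjamini-Hochberg adjusted over all 21721, threshold 0.05. Fold changes on this scale understate the change of low genes. The design set edgeR's test first if the tables held raw counts. Since they hold normalized counts, the recovered reads were passed to edgeR 4.0.16 and DESeq2 1.42.0 (R 4.3.3) as alternatives. Other alternatives were the pseudocount, the filter, the scaling, a replicate block and leaving out each library. The fitting script was checked on simulated data. Isoform ratios were tested by exact permutation, which cannot go below 0.1. Libraries of a group differed by more than counting error (chi-square over degrees of freedom at least 34.0).

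Same-numbered libraries did not deviate together (correlations 0.07, -0.15 and 0.12), so numbers were not taken as pairs. The members and lists were chosen with earlier results of these data known. The length classes, the roles and the removal of the length trend were chosen after values had been seen. Named genes were the catalytic and core subunits and isoform pairs whatever their values, up to 4 per complex with the smallest limma p, the 3 largest changes in each direction, and 2 per supporting list. A gene that this rule takes is not reported here.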

Additional observations from a re-analysis of the deposited data

How the results depend on the processing

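The number of genes called by limma over all genes was 1. It was 5 with a pseudocount of 5, 5 without the filter, 4 with TMM scaling, 4 with scaling to library totals, 16 with the replicate block and 316 with DESeq2, and 1 to 6 with a library left out. Called subunits stayed at 0 in each of these, other than 1 with DESeq2. The replicate block called no subunit, and not every library correlated best with its own number. With the length trend removed, the subunits' median was 0.061, where that of all genes was 0.019, and the count with a lower mean was 33. Leaving out 1 library gave medians of -0.30 to -0.11.

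Signs turned for named genes as follows, in log2 fold change. Removing the length trend gave Cox6a2 0.16, Cox6b1 0.037, Cox7a1 0.37, Cox7a2 0.19, Cox7a2l 0.11, Cox8a 0.11, Ndufa4 0.14 and Uqcrh 0.035. Scaling to library totals gave Cox4i1 -0.026, Cox4i2 -0.039, Cox5a -0.094 and Cox6a1 -0.075, and TMM gave Cox5a -0.015. Cox6a2 became 0.036 with a pseudocount of 5, 0.55 with edgeR and 0.57 with DESeq2. Cox7a1 became 0.16 with edgeR and 0.16 with DESeq2.

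With 1 library left out, the log2 fold changes ran over Atp5b -0.069 to 0.34, Cox4i1 -0.072 to 0.15, Cox4i2 -0.19 to 0.27, Cox5a -0.11 to 0.11, Cox6a1 -0.074 to 0.076, Cox6a2 -1.04 to 0.93, Cox7a1 -0.87 to 0.43, Cox7a2l -0.17 to 0.0076, Ndufs1 -0.16 to 0.24, Ndufv1 -0.058 to 0.19 and Sdhb -0.082 to 0.28.
The isoform ratio differences ran over Cox4i2 to Cox4i1 -0.33 to 0.14, Cox6a2 to Cox6a1 -0.96 to 0.85 and Cox7a1 to Cox7a2 -0.61 to 0.51.
With a pseudocount of 5 the Cox6a2 and Cox7a1 ratio differences were 0.017 and 0.022. In all, 628 values of named genes kept their direction and side of the threshold, 34 changed sign and 1 newly passed (Ndufa4l2 with DESeq2). The cause of these changes was not tested. With 3 libraries per group, a subunit not called may still differ.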
